A study of Mus musculus with 8 samples.

Results

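The collagen, laminin and integrin families are the genes whose mouse symbols name a collagen chain (Col, a number, a and a number), a laminin alpha, beta or gamma chain, or an integrin alpha or beta chain. Col4a1, Col4a2, Lama1, Lamb1 and Lamc1, the chains of the first embryonic basement membrane, were left out of the members and are given beside them as a separate list. The symbols matched 79 of the 55401 genes in the count table. Of these, 73 had at least 10 counts over all 8 libraries and were kept as members: 38 of 42 collagens, 8 of 8 laminins and 27 of 29 integrin-named genes. The 6 dropped were Col19a1, Col4a3, Col4a6, Col8a1, Itgax and Itgb2l. A filter on low counts then left 56 of the 73 for testing (28 collagens, 6 laminins and 22 integrin-named genes). The 17 kept but not tested were Col3a1, Col4a4, Col6a1, Col6a3, Col9a1, Col10a1, Col15a1, Col24a1, Col25a1, Col28a1, Lama4, Lamc3, Itga2, Itga11, Itgam, Itgb6 and Itgb8, each with between 11 and 56 counts in total. Itgb1bp1, Itgb1bp2 and Itgb3bp match by symbol but encode proteins that are not integrin chains.

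Polyadenylated RNA was sequenced from mouse embryonic stem cells (ESCs) of the established R1 line, either control or carrying a Zfp462 knockout. Zfp462 is a gene for a protein with zinc fingers. Each of 4 groups had 2 libraries: control ESCs, Zfp462 knockout ESCs, control embryoid bodies (EBs) and Zfp462 knockout EBs. All ESCs were grown on gelatin in serum with leukaemia inhibitory factor (LIF), and EBs came from dissociated ESCs of the same lines kept for 3 days in Petri dishes. The number of knockout clones, and whether both libraries of each group represent separate cultures, are not given in the labels used here. The p-values accordingly reflect library-to-library spread alone, which may be technical.

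Collagens are trimers of chains that build fibrils, sheets or cell surface structures outside the cell. Laminins are trimers of one alpha, one beta and one gamma chain that polymerise into basement membranes, the sheets on which the epiblast and the extraembryonic endoderm of the early mouse embryo rest. Integrins are alpha-beta pairs in the cell membrane that bind collagens, laminins or proteins with an RGD motif such as fibronectin, and ESCs attach through them to gelatin and to serum proteins.

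Library totals ranged from 12119763 to 16228426 counts. Zfp462 itself was at 183 and 197 CPM (counts scaled to library size and composition) in control ESCs, 104 and 107 in knockout ESCs, 153 and 130.3 in control EBs, and 102.0 and 102.5 in knockout EBs. It fell by 0.85 ± 0.10 in ESCs and by 0.47 ± 0.10 in EBs on the log2 scale (± SE; edgeR adjusted p = 0.000366 and 0.0207), so reads of the targeted gene remained in the knockout libraries. All 8 ESC markers were detected in every library, and their summed CPM was 5748 to 5816 in control ESCs, 4406 to 4556 in knockout ESCs, 3031 to 3194 in control EBs and 3326 to 3339 in knockout EBs. In the same order, 4 formative epiblast markers summed to 300.5 to 323, 344 to 359.8, 1734 to 1836 and 1079 to 1102 CPM, and 5 trophectoderm markers to 96.0 to 116, 237 to 239.8, 166.6 to 167.2 and 205 to 226 CPM. Only 3 of the 5 trophectoderm markers reached 10 counts in each library, and Elf5 was at 0 in knockout ESC replicate 1 and both control EB libraries. The summed CPM of 8 extraembryonic endoderm markers was 491 to 520 in control ESCs, 2244 to 2340 in knockout ESCs, 1256 to 1269 in control EBs and 2619 to 2871 in knockout EBs, with all 8 detected throughout. Fibroblast (feeder) markers summed to between 16.8 and 24.5 CPM in every library, with Twist2 and S100a4 at 0 counts in all 8. Knockout EB replicate 1 stood apart with 1852 CPM summed over 10 adult liver markers, against 23.2 CPM in control EB replicate 2 and 2.84 to 5.53 CPM elsewhere. In control EB replicate 2, 6 of the 10 reached 10 counts and none was at 0. Knockout ESC replicate 2 stood apart by base composition, with its high-GC genes 0.54 log2 units low and the difference from its replicate correlated with GC content across 9680 genes (r = 0.72, a description, since genes are not independent). Calls that ended without knockout EB replicate 1 or knockout ESC replicate 2 are named with the results. In each pair of values below, replicate 1 comes first. In bulk samples such as these, fewer cells of a type and less RNA per cell cannot be told apart.

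Scaled by gene length, the members covered a wide range of levels. Itgb1, the beta chain shared by most matrix-binding integrins, was the highest in every group, at a mean of 94.3 RPKM (CPM per kilobase of exon) over the 8 libraries. Col18a1, which encodes the basement membrane collagen XVIII, followed at 52.0 RPKM and Lama5, the alpha chain of the later, widely distributed laminins, at 29.2 RPKM. Itga6, the alpha chain of a laminin receptor abundant in ESCs, was at 18.0 RPKM, and Itga5, the alpha chain of the fibronectin receptor, at 14.7 RPKM. The highest fibrillar collagen, Col5a1, reached 2.10 RPKM. Beneath Col18a1 the member collagens were therefore low, and many calls below rest on genes of a few CPM.

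**Figure D1:**
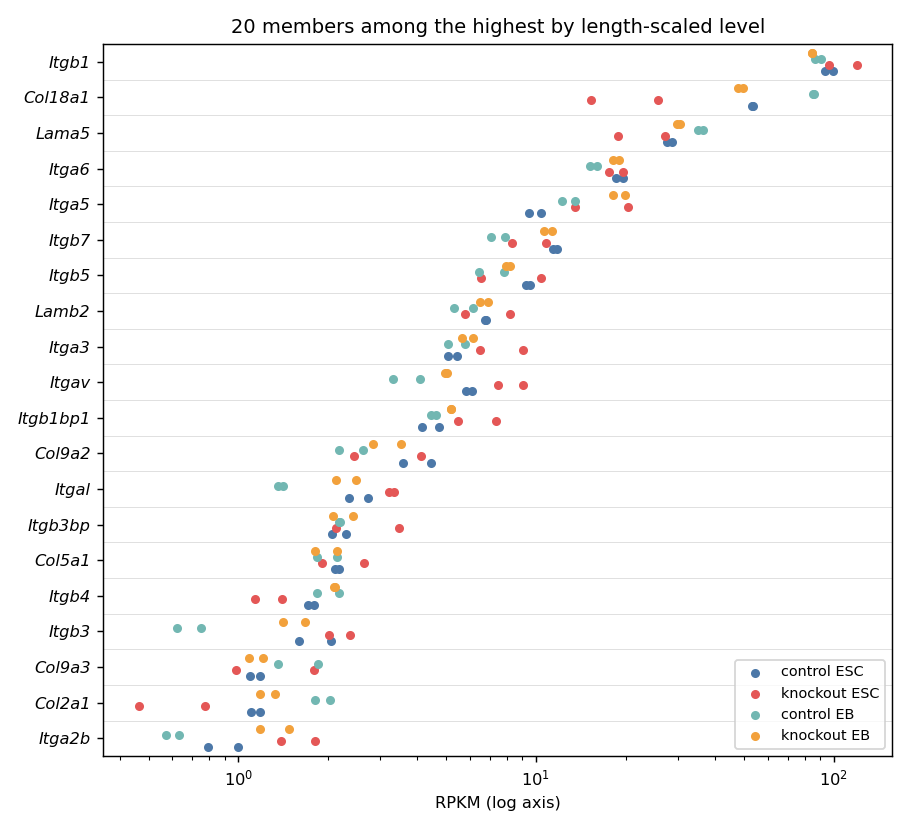
Length-scaled level (RPKM, log axis) of 20 members among the highest by mean, with 1 point for each of the 8 libraries and colours for the 4 groups. Itgb1, Col18a1 and Lama5 lead, and the Col18a1 points spread widest among these, with the 2 knockout ESC libraries lowest and the 2 control EB libraries highest.

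A gene was called when its edgeR quasi-likelihood test, adjusted by Benjamini-Hochberg over all 17125 genes tested, gave p below 0.05. Between knockout and control ESCs, 6 of the 56 tested members were higher and 7 lower, where 8.30% of all genes tested were higher and 6.20% lower. Between knockout and control EBs, 3 were higher and 2 lower, against 4.75% and 2.04% of all genes. From ESCs to EBs, 4 members rose and 7 fell in the control line (8.60% and 9.63% of all genes), and 6 rose and 4 fell in the knockout line (8.23% and 7.11%). The median log2 change over the tested members was -0.18, 0.15, -0.04 and 0.01 in these 4 comparisons, beside -0.03, 0.00, -0.01 and 0.00 over all genes tested. Since members pass the filter more readily in the group where they are high, these counts describe the tested members only. The 4 comparisons share libraries in pairs: the knockout effect in ESCs and the control time course both use the control ESCs, for example, and the values are set side by side below without a test of their likeness.

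The calls fell on 22 members, with 39 calls in all. Of these, 9 held when any 1 of the 8 libraries was left out and under every other setting tried, among them Col18a1 in knockout ESCs and over time in the knockout line, Col6a4 and Lama3 in knockout ESCs, Col6a5 and Itgav over time in the knockout line, and Itgb3 over time in the control line. No call changed sign under any setting. Without knockout ESC replicate 2, the log2 changes in knockout ESCs were -1.68 for Lama3, -2.16 for Col6a4, 1.03 for Itga5, -0.84 for Itga9, 0.78 for Itga3, 1.60 for Col5a2 and 1.74 for Col1a2, all still called. In the knockout time course without it they were 2.07 for Col6a5, -0.59 for Itgav and -1.46 for Col27a1, also still called. Without knockout EB replicate 1, the changes in knockout EBs were -0.94 for Lama3, 1.30 for Itga2b and 0.84 for Itgal, all no longer called (adjusted p = 0.126, 0.0696 and 0.0801). Leaving out a library leaves 1 in its group, whose spread is then taken to be like that of the other groups. When only the 4 ESC libraries were fitted, 1 member was higher and 4 lower in knockout ESCs, the calls of Col1a2, Col5a2, Itga3, Itga5, Itgav, Col2a1, Col6a6 and Col8a2 being lost. When only the 4 knockout libraries were fitted, 2 rose and 2 fell over time, the calls of Col2a1, Col6a6, Col8a2, Itgb4, Col27a1 and Itgb1 being lost. Col1a2, Col6a6 and Col8a2, all under 5 CPM in every group, are named here after their values were seen.

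**Figure D2:**
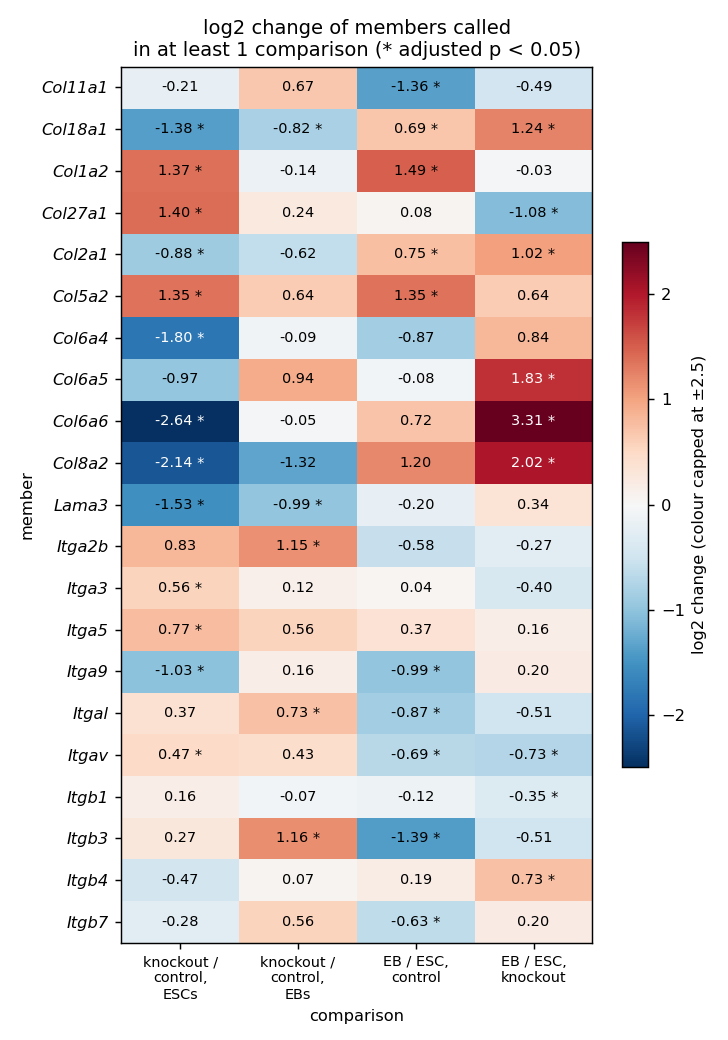
Log2 change of members called in at least 1 comparison (rows) in each of the 4 comparisons (columns), with the value in each cell, an asterisk where it was called, and colour capped at 2.5 in either direction. Col18a1 is called in all 4 columns, and Lama3 is lower in both knockout columns.

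Among the 28 tested collagens, 3 were higher and 5 lower in knockout ESCs, none were higher and 1 lower in knockout EBs, and 4 rose and 1 fell over time in the control line against 5 and 1 in the knockout line. For the 17125 genes the shares were, in this order, 8.30% and 6.20%, 4.75% and 2.04%, 8.60% and 9.63%, and 8.23% and 7.11%. Col18a1 lies at chr10:77052178-77166548 on the minus strand (GRCm38). Its protein carries heparan sulfate chains and is the precursor of the fragment endostatin. It was at 376 and 372 CPM in control ESCs, 181 and 107 in knockout ESCs, 598 and 605 in control EBs, and 347 and 335 in knockout EBs. Both knockout libraries lay below both control libraries at each stage, and EBs lay above ESCs of the same genotype. The log2 change with the knockout was -1.38 ± 0.18 in ESCs (adjusted p = 0.000671) and -0.82 ± 0.18 in EBs (adjusted p = 0.0219). Over time it rose by 0.69 ± 0.18 in the control line (adjusted p = 0.0234) and by 1.24 ± 0.18 in the knockout line (adjusted p = 0.00157).

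The exons of Col18a1 are 60.8% GC, and the lower of its knockout ESC values came from replicate 2, the library with low high-GC genes. Without that library the log2 change in ESCs was -1.05, and with each library's GC trend removed it was -1.26, called in both cases. The EB call was lost without any 1 of the 4 EB libraries or either control ESC library. Without knockout EB replicate 1, the library with the most liver transcripts, the change was -0.84. The rise over time in the control line was lost without any 1 of the 4 control libraries (adjusted p up to 0.188). The difference between the 2 knockout effects was 0.56 ± 0.25 and did not pass (adjusted p = 0.401). With the GC trend removed it passed, at an adjusted p of 0.00618. Of the RPKM summed over the member collagens, Col18a1 made up 74.4% to 76.4% in control ESCs and 53.8% to 58.3% in knockout ESCs. In control EBs it made up 83.2% to 84.2% and in knockout EBs 73.0% to 74.2%. The left-out Col4a1 and Col4a2 are not in this sum, so these are not shares of all collagen RNA.

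Col6a4, Col6a5 and Col6a6 encode alternative alpha chains of the beaded-filament collagen VI and stand in a row on the minus strand at chr9:105687809-106096783, with no other protein-coding gene between them. The 250 bases before each gene's RefSeq start (GRCm38.p6) are printed because each neighbour was called in at least 1 comparison and Col18a1 had the highest level among the member collagens. They are in lower case with the GC box, GGGCGG on either strand, in capitals. Col18a1 has 2 annotated starts, at chr10:77166531-77166780 and chr10:77113706-77113955. The upstream regions of Col6a4, Col6a5 and Col6a6 are chr9:106096692-106096941, chr9:105960644-105960893 and chr9:105828086-105828335. All 5 lie on the minus strand and read 5′ to 3′ toward the gene.
Col18a1 first start: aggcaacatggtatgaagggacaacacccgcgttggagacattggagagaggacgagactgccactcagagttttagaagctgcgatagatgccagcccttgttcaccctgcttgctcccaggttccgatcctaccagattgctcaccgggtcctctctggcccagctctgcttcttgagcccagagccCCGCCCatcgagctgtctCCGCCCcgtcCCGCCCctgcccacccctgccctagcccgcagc
Col18a1 second start: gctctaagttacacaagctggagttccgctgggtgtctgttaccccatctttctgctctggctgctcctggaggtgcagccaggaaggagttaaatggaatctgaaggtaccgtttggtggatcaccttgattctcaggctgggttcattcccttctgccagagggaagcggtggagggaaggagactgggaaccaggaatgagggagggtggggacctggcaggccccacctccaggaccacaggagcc
Col6a4: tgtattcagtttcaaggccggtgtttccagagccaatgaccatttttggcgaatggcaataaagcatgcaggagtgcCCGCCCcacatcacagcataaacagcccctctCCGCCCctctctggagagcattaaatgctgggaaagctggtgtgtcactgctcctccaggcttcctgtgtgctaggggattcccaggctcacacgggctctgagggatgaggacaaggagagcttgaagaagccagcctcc
Col6a5: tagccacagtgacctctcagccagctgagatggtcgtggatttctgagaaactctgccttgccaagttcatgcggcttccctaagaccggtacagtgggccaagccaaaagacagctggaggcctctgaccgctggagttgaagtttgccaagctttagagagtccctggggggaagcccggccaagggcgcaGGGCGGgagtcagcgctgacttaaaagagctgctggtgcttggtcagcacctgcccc
Col6a6: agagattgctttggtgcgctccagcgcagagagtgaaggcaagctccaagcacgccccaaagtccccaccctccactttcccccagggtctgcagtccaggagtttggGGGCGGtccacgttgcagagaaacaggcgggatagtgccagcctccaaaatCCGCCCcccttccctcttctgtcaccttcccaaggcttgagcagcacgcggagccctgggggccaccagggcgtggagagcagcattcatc

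The first Col18a1 start has 3 GC boxes and 12 CpG dinucleotides, and the second has no GC box and 3 CpG, although both precede the same gene. Col6a4, Col6a5 and Col6a6 have 2, 1 and 2 GC boxes and 5, 8 and 10 CpG. Of 32851 mouse promoters of the same length, 32.7% hold a GC box and the median has 6 CpG. Of the 59 promoters that matched 53 of the 73 members, 27 hold a GC box and the median has 10 CpG. None of the 5 sequences holds a TATA box (TATAAA, in 12.4% of all promoters), a GATA motif (AGATAA or AGATAG, or TGAT followed by AA or AG, 26.5%) or the octamer (ATGCAAAT, 1.60%). Each motif was searched on its own on both strands. A match is a run of letters and not a site shown to be used, and the counts of the table do not separate the 2 Col18a1 starts.

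For each of the 3 collagen VI neighbours the knockout ESC libraries were the lowest of all, and the genes were not tested against each other. Col6a4 was at 6.84 and 6.88 CPM in control ESCs, 1.53 and 2.40 in knockout ESCs, 4.24 and 3.22 in control EBs, and 3.46 and 3.58 in knockout EBs. The knockout ESC libraries were lowest, and the EB groups overlapped. Its log2 change in knockout ESCs was -1.80 ± 0.30 (adjusted p = 0.00273), held without any 1 library.

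Col6a5 was at 4.89 and 9.15 CPM in control ESCs, 3.06 and 4.15 in knockout ESCs, 7.82 and 5.57 in control EBs, and 12.6 and 13.2 in knockout EBs. The knockout libraries were thus the lowest among ESCs and the highest among EBs. The log2 changes were -0.97 ± 0.32 in ESCs (adjusted p = 0.0741) and 0.94 ± 0.30 in EBs (adjusted p = 0.0977), neither called. Col6a5 rose over time in the knockout line by 1.83 ± 0.32 (adjusted p = 0.00455), while the control change was -0.08 ± 0.31. The difference between its knockout effects, 1.91 ± 0.44, gave the smallest adjusted p of any member by edgeR, 0.0781, and by DESeq2, 0.0107. With the GC trend removed it was 0.0252, above that of Col18a1.

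Col6a6 had only 14 and 20 counts in control ESCs, 5 and 0 in knockout ESCs, 33 and 22 in control EBs, and 26 and 24 in knockout EBs. The knockout ESC libraries again stood lowest. Its call in knockout ESCs, a log2 change of -2.64 ± 0.79 (adjusted p = 0.0486), was lost in 7 of the 8 fits without 1 library, holding only without knockout ESC replicate 1, with adjusted p up to 0.246. Without knockout ESC replicate 2, the library at 0, it was -1.68. It was also lost when library totals were used without composition factors, under a filter of at least 1 CPM and with the replicate number as a block. The rise over time in the knockout line, 3.31 ± 0.76 (adjusted p = 0.0165), was lost without either control ESC or either knockout EB library (adjusted p up to 0.0837). At these counts the size of a fitted fold depends on the prior count.

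**Figure D3:**
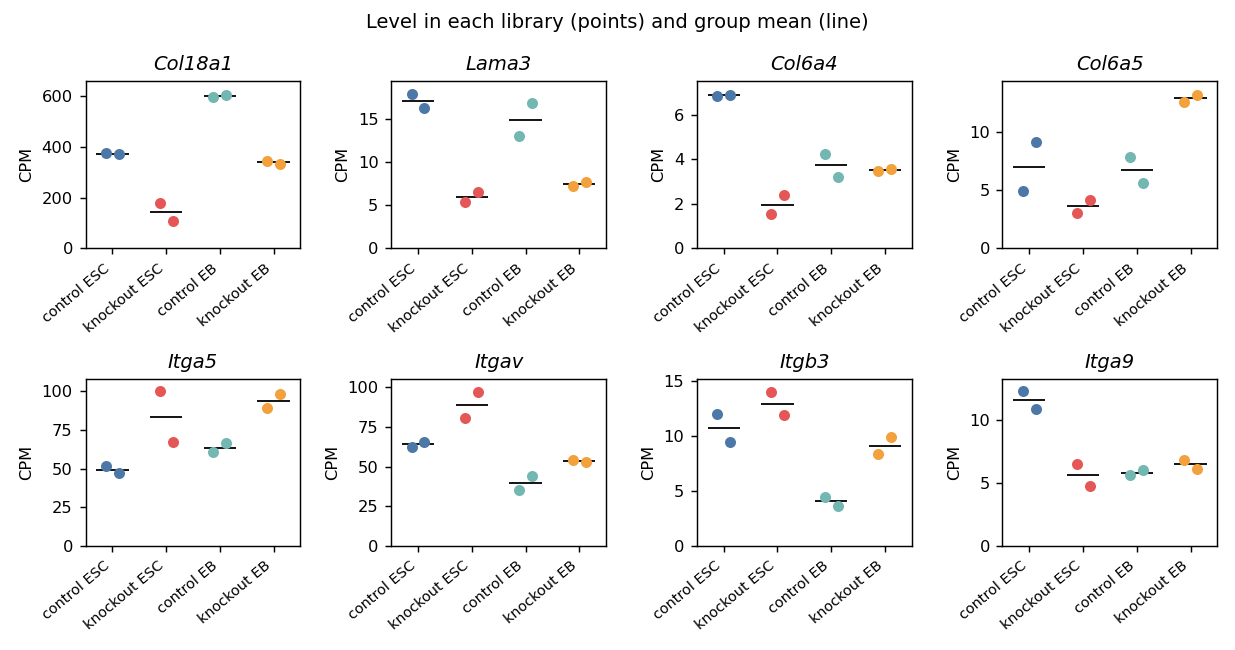
CPM of 8 members in each library (points) with the group mean (line) for control ESCs, knockout ESCs, control EBs and knockout EBs. The panels of Col18a1, Lama3 and Col6a4 have the knockout ESC libraries lowest, Itga5 has both knockout groups above their controls, Itgb3 has the control EB libraries lowest, and Itga9 has the control ESC libraries highest.

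Col8a2, which encodes a chain of the network-forming collagen VIII, had 14 and 24 counts in control ESCs, 5 and 3 in knockout ESCs, 50 and 35 in control EBs, and 12 and 20 in knockout EBs. Knockout libraries were below control libraries at both stages without overlap. The change was -2.14 ± 0.55 in ESCs (adjusted p = 0.0268) and -1.32 in EBs, which was not called. It rose by 2.02 ± 0.56 over time in the knockout line (adjusted p = 0.0363). The ESC call was lost without either control ESC library, knockout ESC replicate 2 or control EB replicate 1 (adjusted p up to 0.182). The rise was lost in 7 of the 8 fits without 1 library (adjusted p up to 0.264), holding only without knockout ESC replicate 1, as well as by DESeq2 and with the replicate block.

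The fibrillar collagens, which form the cross-striated fibrils of connective tissue and cartilage, went both ways in knockout ESCs, with 3 of 9 tested higher and 1 lower. Over all genes tested, 8.30% were higher there and 6.20% lower. Col27a1, a cartilage fibril collagen, was at 6.35 and 8.35 CPM in control ESCs, 25.4 and 13.7 in knockout ESCs, 6.70 and 8.94 in control EBs, and 9.11 and 9.36 in knockout EBs. The knockout ESC libraries were highest but differed between themselves, the lower being replicate 2. It rose in knockout ESCs by 1.40 ± 0.29 (adjusted p = 0.00968), a call lost without control ESC replicate 1 or 2 (adjusted p = 0.133 and 0.0754). Without knockout ESC replicate 2 the change was 1.78. Over time in the knockout line Col27a1 fell by 1.08 ± 0.29 (adjusted p = 0.0316), lost in 7 of the 8 fits without 1 library (adjusted p up to 0.156), all but that without knockout ESC replicate 2.

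Col5a2 and Col1a2, chains of the fibril-forming collagens V and I, were low. Col5a2 was at 1.55 and 1.11 CPM in control ESCs, 4.01 and 2.69 in knockout ESCs, 3.78 and 2.90 in control EBs, and 5.65 and 4.79 in knockout EBs. Col1a2 was at 1.55 and 1.04 CPM in control ESCs, 4.30 and 2.33 in knockout ESCs, 3.51 and 3.69 in control EBs, and 3.16 and 3.35 in knockout EBs. For both genes the control ESC libraries were the lowest of all. In knockout ESCs Col5a2 rose by 1.35 ± 0.35 (adjusted p = 0.0286) and Col1a2 by 1.37 ± 0.39 (adjusted p = 0.0397). From control ESCs to control EBs they rose by 1.35 ± 0.35 and 1.49 ± 0.39 (adjusted p = 0.0246 and 0.0238). In ESCs the Col5a2 call was lost without either control ESC library, either knockout EB library or knockout ESC replicate 1 (adjusted p up to 0.258). That of Col1a2 was lost in 7 of the 8 fits, all but that without knockout ESC replicate 2 (adjusted p up to 0.314), and by DESeq2. The time calls were lost without any 1 of the 4 control libraries (adjusted p up to 0.215 and 0.216). The fibroblast markers, summed, were at 16.8 to 17.2 CPM in control ESCs and 18.3 to 20.5 in knockout ESCs. They were at 24.3 to 24.5 CPM in control EBs and 21.2 to 23.1 in knockout EBs, with Twist2 and S100a4 at 0. The part of these cells in the results was not tested.

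Col2a1, the main cartilage collagen, was at 10.2 and 10.9 CPM in control ESCs, 7.15 and 4.29 in knockout ESCs, 16.8 and 18.7 in control EBs, and 10.9 and 12.3 in knockout EBs. Knockout libraries were below control libraries at each stage. The change in ESCs was -0.88 ± 0.24 (adjusted p = 0.0335). It was lost without knockout ESC replicate 2, where it was -0.57 with an adjusted p of 0.0804, and without any 1 control library (adjusted p up to 0.220). In EBs the change was -0.62 and was not called. Over time Col2a1 rose by 0.75 ± 0.23 in the control line (adjusted p = 0.0445) and by 1.02 ± 0.24 in the knockout line (adjusted p = 0.0191). The first was lost without any library but the 2 of knockout ESCs (adjusted p up to 0.240), with library totals (adjusted p = 0.063) and with the replicate block (adjusted p = 0.0582). The second was lost without either control ESC or either knockout EB library (adjusted p up to 0.100).

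Col11a1, another cartilage fibril chain, fell over time in the control line. It was at 8.47 and 6.88 CPM in control ESCs and 2.39 and 3.61 in control EBs, beside 7.07 and 6.19 in knockout ESCs and 4.59 and 4.87 in knockout EBs. The control EB libraries were the lowest. The log2 change was -1.36 ± 0.27 (adjusted p = 0.00678), lost without control EB replicate 1 or control ESC replicate 1 (adjusted p = 0.0691 and 0.0799). Col5a1, the fibrillar collagen with the highest RPKM, stayed between 15.5 and 22.7 CPM with groups that overlapped and was not called. None of the 7 tested FACIT collagens (fibril-associated chains, led by Col9a2), the 3 tested transmembrane collagens (led by Col17a1) or Col4a5, the single tested type IV chain, was called in any comparison. With the GC trend removed, the falls of Col9a2 and the transmembrane Col13a1 in the control line passed (adjusted p = 0.00349 and 0.0264). In the knockout line the rise of the FACIT Col14a1, at a mean of 0.533 CPM, and the fall of Col5a1 then passed (adjusted p = 0.0384 and 0.0400).

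Among the 6 laminins tested, 1 was called lower in knockout cells at each stage and none higher. Of all genes tested, 6.20% were lower in knockout ESCs and 2.04% in knockout EBs. The laminin lower in knockout cells was Lama3, which encodes an alpha chain of laminins in epithelial basement membranes. Lama3, on chromosome 18, was at 17.8 and 16.3 CPM in control ESCs, 5.32 and 6.48 in knockout ESCs, 13 and 16.8 in control EBs, and 7.23 and 7.69 in knockout EBs. Every knockout library lay below every control library. It changed by -1.53 ± 0.21 in ESCs (adjusted p = 0.000759) and by -0.99 ± 0.20 in EBs (adjusted p = 0.0170). In EBs the call did not survive the omission of 5 of the 8 libraries. The adjusted p was 0.126 and 0.0723 without knockout EB replicate 1 and 2, 0.116 without control EB replicate 2, and 0.0533 and 0.0525 without control ESC replicate 1 and 2.

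Lama5, the member laminin with the highest RPKM, was at 314 and 325 CPM in control ESCs, 309 and 215 in knockout ESCs, 398 and 414 in control EBs, and 339 and 347 in knockout EBs. Only knockout ESC replicate 2 stood clearly below the other ESC libraries, and the EB genotypes did not overlap. The knockout changes were -0.29 ± 0.14 in ESCs and -0.24 ± 0.14 in EBs (adjusted p = 0.203 and 0.346), neither called. The exons of Lama5 are 59.9% GC, and with the GC trend removed the EB change of -0.21 passed, at an adjusted p of 0.0432. Lamb2, a beta chain that replaces Lamb1 in some basement membranes, was between 32.4 and 49.7 CPM in all libraries and was not called.

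In RPKM the left-out chain Lama1 moved far more than the member alpha chains and set the proportions among alpha chains. It was at 63.4 and 65.5 RPKM in control ESCs, 252 and 229 in knockout ESCs, 31.0 and 33.6 in control EBs, and 69.0 and 75.1 in knockout EBs. Of the RPKM of all alpha chains it made up 68.4% to 68.5% in control ESCs, 90.1% to 92.1% in knockout ESCs, 46.1% to 46.9% in control EBs and 69.3% to 70.6% in knockout EBs. Lama5 made up most of the rest, 29.7% to 29.9%, 7.58% to 9.70%, 50.9% to 52.1% and 28.7% to 29.9% in the same order. Lama3 went from 1.58% to 1.79% in control ESCs to 0.177% to 0.242% in knockout ESCs, and from 1.80% to 2.18% in control EBs to 0.673% to 0.676% in knockout EBs. Among beta chains Lamb2 held 12.7% to 13% in control ESCs and 3.37% to 4.63% in knockout ESCs, and 13.2% to 13.7% and 10.5% to 10.7% in the 2 groups of EBs. The extraembryonic endoderm markers, which include none of these chains, were higher in knockout cells at each stage as given above, and their part in these proportions was not tested.

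**Figure D4:**
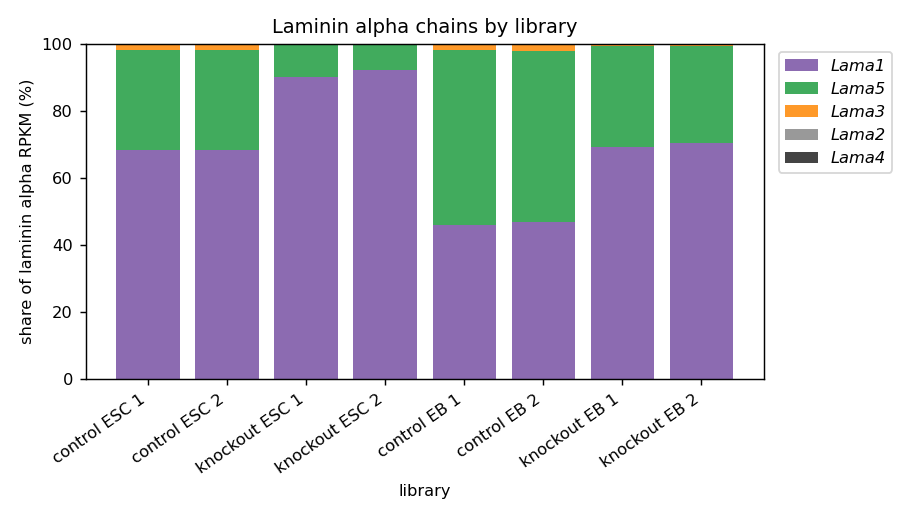
Share (%) of the RPKM of all laminin alpha chains held by each chain in each of the 8 libraries, as stacked bars from 0 to 100. Lama1, which is not a member, takes over 90% in the 2 knockout ESC libraries and under 50% in the 2 control EB libraries, and Lama5 takes nearly all of the rest.

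Among the 22 integrin-named genes tested, knockout ESCs had 3 higher and 1 lower, and knockout EBs had 3 higher and none lower. Over time none rose and 5 fell in the control line, and 1 rose and 2 fell in the knockout line. Of the 6 tested chains of RGD receptors, 2 were higher in knockout ESCs (Itga5 and Itgav) and 2 in knockout EBs (Itgb3 and Itga2b). Of the 6 tested leukocyte and alpha4/alpha9 chains, 1 was lower in knockout ESCs (Itga9) and 1 higher in knockout EBs (Itgal). Among all 17125 genes, 8.30% passed as higher and 6.20% as lower in knockout ESCs, and 4.75% and 2.04% in knockout EBs. For the time comparisons the shares were 8.60% up and 9.63% down in the control line, and 8.23% and 7.11% in the knockout line. The integrin counts were not tested against these shares. Itga5 was at 51.5 and 46.9 CPM in control ESCs, 100.2 and 67.0 in knockout ESCs, 60.5 and 66.5 in control EBs, and 89.2 and 98.0 in knockout EBs. Knockout libraries were above control libraries at both stages. The change was 0.77 ± 0.16 in ESCs (adjusted p = 0.0112), lost without control ESC replicate 1 or 2 (adjusted p = 0.0938 and 0.170). In EBs it was 0.56 ± 0.16 with an adjusted p of 0.0691 by edgeR, 0.0259 by DESeq2 and 0.00111 with the GC trend removed.

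Itgav, the alpha chain of the vitronectin receptors, lies at chr2:83724397-83806916. It was at 62.6 and 65.3 CPM in control ESCs, 80.4 and 97.2 in knockout ESCs, 35.6 and 43.8 in control EBs, and 54.0 and 53.0 in knockout EBs. Knockout was above control at each stage and EBs below ESCs in each line. It rose in knockout ESCs by 0.47 ± 0.13 (adjusted p = 0.0312), a call lost without either control ESC library, either knockout EB library or knockout ESC replicate 2 (adjusted p up to 0.232). The EB change of 0.43 was not called (adjusted p = 0.0786). Over time Itgav fell by 0.69 ± 0.13 in the control line (adjusted p = 0.00510) and by 0.73 ± 0.13 in the knockout line (adjusted p = 0.00459). The first was lost without control EB replicate 1 or control ESC replicate 1 or 2 (adjusted p = 0.0741, 0.0509 and 0.0774). An antisense gene covers 5.90% of its exons, and no strand setting of the counting was stated in these sources, so the reads of the pair cannot be told apart there.

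Itgb3, the beta partner of Itgav and Itga2b, was at 12.1 and 9.46 CPM in control ESCs, 14.0 and 11.9 in knockout ESCs, 4.44 and 3.69 in control EBs, and 8.36 and 9.89 in knockout EBs. The control EB libraries were lowest. It fell over time in the control line by 1.39 ± 0.23 (adjusted p = 0.00249) and was higher in knockout than control EBs by 1.16 ± 0.23 (adjusted p = 0.0153). The latter was lost without control EB replicate 1 or 2 or knockout EB replicate 2 (adjusted p = 0.0921, 0.111 and 0.0926). Without knockout EB replicate 1, which carries the most liver transcripts, the change was 1.28.

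Itga2b, which pairs with Itgb3 in the platelet fibrinogen receptor, was at 4.32 and 5.47 CPM in control ESCs, 9.92 and 7.57 in knockout ESCs, 3.12 and 3.45 in control EBs, and 6.48 and 8.07 in knockout EBs. Knockout was above control at both stages. The change in EBs was 1.15 ± 0.26 (adjusted p = 0.0276), and that in ESCs was 0.83 ± 0.25 (adjusted p = 0.0502). The EB call was lost without any 1 of the 4 EB libraries or either control ESC library (adjusted p up to 0.207). Beside Itgav, Itgb3 and Itga2b, 5 endothelial markers summed to 141 to 162 CPM in control ESCs, 153 to 172 in knockout ESCs, 71.0 to 82.9 in control EBs and 110.5 to 122 in knockout EBs, also lowest in control EBs. Emcn was at 0 counts in every library, and the part of these cells in the results was not tested.

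Itgal, the alpha chain of a leukocyte integrin, was at 17.9 and 15.4 CPM in control ESCs, 21.1 and 21.9 in knockout ESCs, 9.28 and 8.94 in control EBs, and 14.0 and 16.3 in knockout EBs. The control EB libraries were lowest. It was higher in knockout EBs by 0.73 ± 0.17 (adjusted p = 0.0287) and fell over time in the control line by 0.87 ± 0.17 (adjusted p = 0.00576). The EB call was lost without any 1 EB library or either control ESC library (adjusted p up to 0.209), and the time call without control EB replicate 2 or control ESC replicate 1 (adjusted p up to 0.0689). Itgb7, the leukocyte beta chain with the highest RPKM here, fell over time in the control line from 32.5 and 31.6 to 19.5 and 21.9 CPM, by 0.63 ± 0.15 (adjusted p = 0.0148). In the knockout line it was at 29.8 and 23.1 CPM in ESCs and 29.5 and 31.3 in EBs. That call was lost without any 1 of the 4 control libraries (adjusted p up to 0.134). The 6 leukocyte markers summed to 52.4 to 57.0 CPM in control ESCs, 44.6 to 57.4 in knockout ESCs, 40.05 to 42.4 in control EBs and 46.0 to 49.8 in knockout EBs. Tyrobp was at 0 counts in 7 libraries and Ptprc in 4, and the part of these cells in the results was not tested.

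Itga9, an alpha chain that binds tenascin and other matrix proteins, was the member integrin lower in knockout ESCs. It was at 12.3 and 10.9 CPM in control ESCs, 6.49 and 4.80 in knockout ESCs, 5.64 and 6.04 in control EBs, and 6.85 and 6.16 in knockout EBs. Only the control ESC libraries stood apart, and they were the highest. The change was -1.03 ± 0.22 in knockout ESCs (adjusted p = 0.0115), lost without control ESC replicate 1 or 2 (adjusted p = 0.113 and 0.0744). Over time in the control line it was -0.99 ± 0.22 (adjusted p = 0.0128), lost without any 1 of the 4 control libraries (adjusted p up to 0.114).

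Of the 4 laminin receptor chains tested, Itga3 was called higher in knockout ESCs and Itgb4 rose over time in the knockout line. Itga7, a laminin receptor chain of muscle, was between 1.67 and 5.53 CPM and was not called, with log2 changes of -0.66 ± 0.41 in knockout ESCs and -0.97 ± 0.42 over time in the control line (adjusted p = 0.336 and 0.135). Itga6 was at 169 and 179 CPM in control ESCs, 160.2 and 179 in knockout ESCs, 139 and 147 in control EBs, and 166 and 174 in knockout EBs, and was called in no comparison. Itga3, the alpha chain of another laminin receptor, was at 28.9 and 31.1 CPM in control ESCs, 51.7 and 37.0 in knockout ESCs, 29.0 and 32.9 in control EBs, and 35.1 and 32.3 in knockout EBs. The knockout ESC libraries were the highest. The change of 0.56 ± 0.16 in ESCs (adjusted p = 0.0401) was lost in 7 of the 8 fits without 1 library, all but that without knockout ESC replicate 2 (adjusted p up to 0.261), and with the replicate block (adjusted p = 0.0559). Itgb4, the hemidesmosome chain that pairs with Itga6, was at 12.1 and 12.6 CPM in control ESCs, 9.84 and 8.01 in knockout ESCs, 15.3 and 12.9 in control EBs, and 14.8 and 14.7 in knockout EBs. The knockout ESC libraries were lowest. Its rise of 0.73 ± 0.19 over time in the knockout line (adjusted p = 0.0262) was 0.41 (adjusted p = 0.134) with the GC trend removed, and was lost without either control ESC library, either knockout EB library or knockout ESC replicate 2 (adjusted p up to 0.131). The exons of Itgb4 are 60.0% GC.

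Itgb1 was at 381 and 405 CPM in control ESCs, 394 and 487 in knockout ESCs, 354 and 369 in control EBs, and 345 and 345 in knockout EBs, and held 78.5% to 86.8% of the RPKM of the beta chains in each library. The ESC groups overlapped. Its decrease over time in the knockout line, -0.35 ± 0.10 (adjusted p = 0.0410), was lost in 7 of the 8 fits without 1 library, all but that without knockout ESC replicate 1 (adjusted p up to 0.209). Without knockout ESC replicate 2 it was -0.19. Itgb5 and the 2 tested collagen-receptor alpha chains, Itga1 and Itga10, were not called in any comparison, and another gene on the same strand shares 33.5% of the exonic bases of Itga10. None of the 3 genes that match by symbol but are not integrin chains was called, with Itgb1bp1 between 12.8 and 22.7 CPM.

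No member passed the test of whether the knockout effect differed between EBs and ESCs, where 1.38% of all genes tested did. By edgeR 13 of the 56 had an unadjusted p below 0.05, beside 2136 of all 17125 genes tested, and the smallest adjusted p was the 0.0781 of Col6a5. DESeq2 called 1 member, Col6a5, and the fit with the GC trend removed called 4: Col18a1, Itgb7, Col6a5 and Col27a1. An effect called at one stage and not at the other, as for Col6a4, Itgb3 or Itga9, is therefore not shown to differ between the stages.

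The genes that act with these families were read from lists beside the members. All 5 left-out basement membrane chains were higher in knockout cells, by a median log2 change of 1.89 in ESCs and 0.91 in EBs. Over time 3 of the 5 fell in the control line and all 5 in the knockout line. Of 27 tested of 32 genes for collagen modification, folding, crosslinking and cleavage, 10 were higher and none lower in knockout ESCs (median 0.31), and 6 were higher and 1 lower in knockout EBs (median 0.20). Beside both lists, 8.30% of the 17125 genes passed as higher in knockout ESCs and 6.20% as lower (median -0.03). For knockout EBs those shares were 4.75% and 2.04% (median 0.00). P4ha1 and P4ha2, catalytic chains of the prolyl hydroxylase that stabilises the collagen helix, rose in knockout ESCs by 1.58 ± 0.10 and 1.77 ± 0.09. Serpinh1, the collagen chaperone HSP47, was at 143 and 154 CPM in control ESCs, 706 and 536 in knockout ESCs, 144 and 157 in control EBs, and 279 and 316 in knockout EBs. The knockout libraries were above all control libraries at both stages, and the change was 2.06 ± 0.13 in ESCs and 0.98 ± 0.13 in EBs. In knockout EBs P4ha1 rose by 0.67 ± 0.10 and Loxl2, a crosslinking enzyme, by 0.74 ± 0.12. Over time 5 genes of this list rose and 6 fell in the control line, and 1 rose and 6 fell in the knockout line. Of all genes tested, 8.60% rose and 9.63% fell in the control line, and 8.23% and 7.11% in the knockout line.

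Of 13 tested of 16 basement membrane partners and other ligands, 2 were higher and 2 lower in knockout ESCs, and 3 were higher and none lower in knockout EBs. For the partners and adaptors here, the shares over all genes tested are those given with the list above, for the knockout and the time comparisons. Sparc, a collagen-binding matrix protein, rose by 1.96 ± 0.08 in ESCs and 0.90 ± 0.08 in EBs. Pxdn, the enzyme that crosslinks collagen IV, rose by 1.38 ± 0.10 in ESCs. Nid1, the linker between laminin and collagen IV, rose by 1.26 ± 0.09 in EBs and Smoc1 by 0.47 ± 0.11. Frem2, a basement membrane protein of the embryonic skin, changed by -1.47 ± 0.19 in ESCs. Fn1, fibronectin, the ligand of the receptor that contains Itga5, was at 1260 and 1267 CPM in control ESCs, 755 and 512 in knockout ESCs, 962 and 871 in control EBs, and 1004 and 957 in knockout EBs. The knockout ESC libraries were the lowest, while the EB groups lay close to each other. The change was -0.997 ± 0.14 in ESCs (adjusted p = 0.00110) and 0.10 ± 0.14 in EBs (adjusted p = 0.751). Of 18 tested of 20 integrin adaptors and signalling genes, 1 was higher in knockout ESCs, Parva, an actin-binding partner of integrin-linked kinase, by 1.61 ± 0.19. None was lower in ESCs, and none was called in knockout EBs. Over time 3 adaptors rose and 3 fell in the control line, and 1 rose and 2 fell in the knockout line.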

How the data were processed

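The deposited table holds raw read counts per gene for 8 polyA libraries (4 groups of 2). The authors counted reads per gene with featureCounts after HISAT2 alignment to mm10, per the submitters' processing notes, which give no versions and also name DESeq2. The handling of strand and of reads that match several genes was not stated. Gene symbols, exon GC and overlaps came from GENCODE M21, with 55141 of 55401 identifiers matched, and promoters from RefSeq. Counts were tested in R 4.3.3 with edgeR 4.0.16 (filterByExpr, TMM, glmQLFit and glmQLFTest, 1 mean per group, all 8 libraries; 17125 genes tested, common biological coefficient of variation 0.132), with limma 3.58.1 loaded and DESeq2 1.42.0 as an alternative. CPM used the TMM library sizes and RPKM the deposited gene lengths. The steps were tested on simulated data. Replicate numbers in the labels name libraries only.

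Named with values were Zfp462, members called in at least 1 comparison and averaging 5 CPM or more in a group, the member with the highest RPKM in each role class, and Itgb1, Itga6, Itga5 and Itgav. From each pathway list, up to 3 genes per knockout comparison with the smallest adjusted p were named. Fn1 and Itga7 were given values outside these rules, as were Col1a2, Col6a6, Col8a2, Col13a1 and Col14a1. The members and lists were chosen with earlier results of these data known. The results of 1 member are not reported here. Alternatives were other normalizations and filters, removal of each library's GC trend (spline with 5 degrees of freedom), DESeq2, a replicate block, fits of the compared groups alone and the omission of each library.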

Additional observations from a re-analysis of the deposited data

How the results depend on the processing

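Counts of called members are given as higher and lower. DESeq2 called 5 higher in knockout EBs and 1 in the difference between stages. Without the filter on low counts these were 7, and 3 with 1 lower. With each library's GC trend removed, 6 and 4 were called in knockout EBs, 15 fell over time in the control line and 8 in the knockout line, and the difference called 3 and 1. With only the groups compared, the counts were 1 and 4 in knockout ESCs, 8 and 4 in knockout EBs, 7 and 13 over time in the control line, and 2 and 2 in the knockout line. The difference between stages has no such value, since it needs all 4 groups. Leaving out 1 library at a time gave 0 to 7 higher and 3 to 13 lower in knockout ESCs, 0 to 8 and 0 to 4 in knockout EBs, 0 to 7 and 2 to 12 over time in the control line, 2 to 12 and 2 to 6 in the knockout line, and 0 to 8 and 0 to 2 for the difference. The cause of these shifts was not tested. Shares over all genes tested are not given for these settings or those with a block below. A shift in a count is therefore not shown to be particular to the members. Other normalizations and the filter of at least 1 CPM left every count within 1.5 times.

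The labels tie same-numbered libraries by the number alone and do not state whether they share a batch. The differences between replicates correlated between -0.20 and 0.05 in the 6 pairs of groups. With the replicate number as a block, 5 and 6 members were called in knockout ESCs, 3 and 2 in knockout EBs, 3 and 7 over time in the control line and 5 and 4 in the knockout line. The block with the GC trend removed gave 6 and 4 in knockout EBs, 14 lower over time in the control line, 8 lower in the knockout line, and 3 and 1 for the difference. Depth limits the calls on the 17 members that were not tested and on those with few counts per library, such as Col6a6 and Col8a2.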
